A study of Mus musculus with 20 samples.

Results

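Transforming growth factor beta (TGF-β) and activin are related ligands that act through one family of receptors, and 8 of their signaling genes are described here: the ligand genes Tgfb1 and Inhba, the receptor genes Tgfbr1, Tgfbr2 and Acvr1b, the signal transducer Smad3, the inhibitor Smad7 and the target gene Tgfbi. They were chosen by name, and 8 of the 16790 genes with a row in either single-cell table belong to the set. All 8 had a row in both tables. The study asked how B-cell precursors turn into macrophages in mice with cancer. It compared B-MF, macrophage-like cells grown from bone marrow (BM) B cells in medium conditioned by the 4T1.2 mammary cancer line (4T1.2-CM), with Mo-MF, grown from monocytes in that medium, by single-cell RNA sequencing (scRNA-seq). It also sequenced cells sorted as tumor-associated macrophages (TAM) from mice bearing 4T1.2 tumors, and mapped open chromatin by ATAC-seq in CSF1R+ and CSF1R- B-cell precursors (BMBP) of BM and spleen from naive mice.

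The sets used were 2 B-MF and 2 Mo-MF libraries, 4 tumor libraries, and 12 ATAC-seq libraries, 3 for each of CSF1R+ BM, CSF1R- BM, CSF1R+ spleen and CSF1R- spleen. Donors were young female mice of the C57BL/6 or BALB/c strain for cultures and naive tissue, and 4T1.2 is a BALB/c tumor. Which strain gave each library was not given in the sources used here, and no transgene or deletion was named for any of these groups. The labels call the ATAC-seq cells macrophages, whereas the study's methods describe sorted BMBP. The tumor libraries carry the numbers 2 to 5 of their cell names, which do not match the sample titles, so each was taken as 1 of the 4 tumor samples without naming which. Nothing in the labels says that the 2 cultures of a kind came from separate animals, so p-values measure the spread between these libraries, which may be technical.

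TGF-β1 and activin A, a dimer of the product of Inhba, each bind a type II receptor that recruits and phosphorylates a type I receptor. TGF-β uses TGFBR2 and TGFBR1, and activin uses activin type II receptors with ACVR1B. The type I receptors phosphorylate SMAD2 and SMAD3, which enter the nucleus with SMAD4, and SMAD7 limits the signal at the receptor. In macrophages the pathway is known for regulating inflammatory genes, matrix genes and tissue repair.

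Promoter sequences are shown for Tgfb1, Inhba, Tgfbr2 and Smad3, whose starts ranked differently among the peaks of BM and of spleen BMBP, and for Tgfbi, the member with the largest difference between B-MF and Mo-MF over all cells. Each run reads 5′ to 3′ on the gene's own strand and comes from RefSeq (GRCm38.p6). The first 4 hold the 250 bases before the start, and that of Tgfbi holds 187 bases, since it stops at the earlier start of the GENCODE annotation, 63 bases upstream of RefSeq's. Capitals mark the matches to CAGAC, the core bound by Smad proteins, TGANTCA, bound by AP-1, and GAGGAAG, a core bound by PU.1, on either strand.
Tgfb1, chr7:25686752-25687001, plus strand: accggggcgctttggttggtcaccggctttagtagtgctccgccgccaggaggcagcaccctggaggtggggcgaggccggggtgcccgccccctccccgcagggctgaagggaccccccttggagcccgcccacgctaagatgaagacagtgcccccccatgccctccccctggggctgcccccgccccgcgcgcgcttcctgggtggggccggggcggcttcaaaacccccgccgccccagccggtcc
Inhba, chr13:16011601-16011850, plus strand: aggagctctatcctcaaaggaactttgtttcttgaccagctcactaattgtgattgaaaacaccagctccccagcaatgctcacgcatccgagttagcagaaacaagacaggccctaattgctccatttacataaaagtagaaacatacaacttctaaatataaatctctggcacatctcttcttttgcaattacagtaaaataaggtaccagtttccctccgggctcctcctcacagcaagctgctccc
Tgfbr2, chr9:116175364-116175613, minus strand: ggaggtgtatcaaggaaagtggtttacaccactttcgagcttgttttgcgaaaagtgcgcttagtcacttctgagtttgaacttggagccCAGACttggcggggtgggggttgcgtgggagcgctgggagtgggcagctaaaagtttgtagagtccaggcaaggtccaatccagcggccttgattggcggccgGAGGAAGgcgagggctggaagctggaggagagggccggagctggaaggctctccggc
Smad3, chr9:63757995-63758244, minus strand: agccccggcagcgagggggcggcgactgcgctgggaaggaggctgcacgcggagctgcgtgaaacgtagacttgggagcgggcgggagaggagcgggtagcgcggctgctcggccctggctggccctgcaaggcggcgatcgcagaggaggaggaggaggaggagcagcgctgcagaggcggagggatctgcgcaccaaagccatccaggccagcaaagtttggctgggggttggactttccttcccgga
Tgfbi, chr13:56609336-56609522, plus strand: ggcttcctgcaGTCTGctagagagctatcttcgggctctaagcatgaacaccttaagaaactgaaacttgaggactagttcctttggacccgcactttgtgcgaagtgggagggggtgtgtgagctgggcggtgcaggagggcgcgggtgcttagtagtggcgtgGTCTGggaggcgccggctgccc

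The Inhba promoter stood apart from the others in base composition, with a GC content of 43.2%, against a median of 52.4% over 32851 promoters and 75.2% for Tgfb1, 69.2% for Smad3, 62.4% for Tgfbi and 58.4% for Tgfbr2, each counted over 250 bases. The type I receptor genes Tgfbr1 and Acvr1b had 74.8% and 78.8%. The Tgfbr2 promoter held CAGAC at position -160 from the start and GAGGAAG at -57, and that of Tgfbi held the CAGAC core at -239 and -85, read on the other strand as GTCTG. Positions count from RefSeq's start, which for Tgfbi lies 63 bases downstream of the end of the printed run. These letters occurred in 42.2% (CAGAC) and 10.6% (GAGGAAG) of all promoters of this length, and TGANTCA in 6.75%. Matches describe the sequence only.

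Levels are given as the mean corrected count per cell of a library. The authors deposited the natural log of 1 plus a count that SCTransform, a depth-correcting model, had adjusted, and the counts were restored from it. A corrected count can be above 0 where none was observed, so shares of cells with a count carry that error too. The culture libraries held 4846 to 5389 cells and a median of 18350 to 19469 corrected counts per cell, the tumor libraries 2318 to 3180 cells and 7651 to 8266. Any 2 libraries of a table shared 0 to 14 cell barcodes. In the cultures Csf1r, a receptor gene used here as a macrophage marker though not confined to macrophages, had means of 11 and 10.9 for the B-MF pair. The Mo-MF pair had 5.87 and 5.66, and the B-cell gene Cd79a was at most 0.0206. Neutrophil-like clusters made up 10.4% and 9.65% of the Mo-MF libraries, and the one led by Retnlg averaged 431 counts of the neutrophil gene S100a8. Of the 10885 cells sorted as TAM, 48.6% fell into neutrophil-like clusters, so the tumor libraries are described as tumor cells and split by Csf1r.

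B-MF had more mRNA of Tgfb1 and of Tgfbr2 per cell than Mo-MF, and less of Tgfbr1 and of the target gene Tgfbi. Over all cells the difference was over 2-fold for Tgfbi alone among the 6 members that passed the filter on low values, but in macrophage-like clusters its log2 difference was only -0.29, smaller than that of Tgfbr1 (-0.65). Inhba was close to absent from both cultures. Of these 6 genes, 2 were called higher and 2 lower in B-MF, and 2 were not called. Over all 8633 genes tested 39.5% were called, 22.6% higher and 16.9% lower in B-MF, so large parts of the transcriptome differed. The median log2 difference was -0.01 over the 6 members and 0.02 over all genes.

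Among the ligand genes, Tgfb1, which codes for the TGF-β made by most leukocytes, had a mean of 5.57 and 5.63 counts in B-MF, compared with 4.76 and 4.71 for the Mo-MF pair. The groups did not overlap, and replicates lay close together. With 2 libraries of each kind such separation is frequent by chance. Its share over all genes was not counted, for this gene or those below. Nearly every cell had a count, 99.0% to 99.4% per library. The log2 difference of B-MF over Mo-MF was 0.24 ± 0.05 (SE; limma, Benjamini-Hochberg adjusted p = 0.00599). The call was lost without Mo-MF replicate 1 (adjusted p by limma 0.0661) and without Mo-MF replicate 2 (0.0853), with differences of 0.24 and 0.23.

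Inhba, the activin A subunit gene, averaged 0.00687 and 0.0143 in B-MF, against 0.0326 and 0.0247 for the Mo-MF libraries, below the filter of 0.1, and 0.3% to 1.7% of cells had a count. Both Mo-MF libraries were above both B-MF libraries. Few cells carried these counts: 31 fibroblast-like cells held 82.1% of the Inhba counts of B-MF, and neutrophil-like clusters held 64.6% of those of Mo-MF. Without the filter the log2 difference was -0.22 and was not called by limma.

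The receptor genes did not move together. Tgfbr2, the type II receptor gene that binds the ligand, averaged 2.76 and 2.68 in B-MF, against 2.03 in each Mo-MF library. Tgfbr1, the gene of its type I partner, averaged 0.254 and 0.238 in B-MF, against 0.437 and 0.419 for the Mo-MF libraries. Neither gene's groups overlapped, and the order of the cultures was opposite for the 2 genes. The log2 difference was 0.41 ± 0.05 for Tgfbr2 (SE; limma, adjusted p = 0.000388) and -0.61 ± 0.05 for Tgfbr1 (adjusted p = 5.58e-05). Cells with counts of both genes made up 18.9% and 16.9% of B-MF and 27.4% and 25.6% of Mo-MF, near the products of the 2 genes' shares in the same libraries (18.8%, 16.9%, 27.2% and 26.1%).

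Acvr1b, the type I receptor gene for activin, averaged 0.15 and 0.132 in B-MF, against 0.174 and 0.16 for the Mo-MF libraries. The Mo-MF libraries were the higher pair without overlap, which 2 against 2 libraries often show by chance. The log2 difference of -0.15 (95% interval -0.28 to -0.01) was not called by limma (adjusted p = 0.0853). It was called without B-MF replicate 1, at -0.20, and with size factors, at -0.17. Without B-MF replicate 2 it was -0.093 and not called.

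Downstream of the receptors, Smad3, the transcription factor that the type I receptors activate, averaged 0.0947 and 0.0687 in B-MF, against 0.0654 and 0.0657 for the Mo-MF libraries, under the filter, with 6.0% to 8.7% of cells positive. Smad7, which blocks the receptors and is itself induced by the pathway, averaged 0.191 and 0.162 in B-MF, against 0.153 and 0.15 for the Mo-MF libraries. B-MF replicate 1 was the highest library for both genes, and B-MF replicate 2 lay near the Mo-MF libraries. The log2 difference of Smad7 was 0.13 (95% interval -0.01 to 0.28; limma, adjusted p = 0.127), not called. It was called when macrophage- and monocyte-like clusters were compared (0.23, adjusted p by limma 0.0174), with size factors (0.11, adjusted p 0.0363), without B-MF replicate 2 (0.21) and, in a choice of cells made after the values were seen, in macrophage-like clusters alone (0.24, adjusted p 0.0127). Without B-MF replicate 1 it was 0.058 and not called.

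Tgfbi, the gene of a secreted matrix protein induced by TGF-β, averaged 0.276 and 0.272 in B-MF, against 0.731 and 0.719 for the Mo-MF libraries. The libraries of a kind almost coincided. The log2 difference was -1.14 ± 0.05 (SE; limma, adjusted p = 9.67e-07). The share of cells with a count differed far less than the mean, at 17.4% and 16% for B-MF and 24.6% and 25.0% for Mo-MF. Compared by these shares, the log2 difference of Tgfbi was -0.54 and not called by limma (adjusted p = 0.0515), and of the members only Tgfbr1 was.

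Most Tgfbi counts of Mo-MF lay outside macrophage-like clusters, which held 43.6% of them. A monocyte-like cluster led by Ccr2 made up 1.24% and 1.19% of the Mo-MF libraries and none of B-MF, and it averaged 8.80 Tgfbi counts per cell (7.47 and 10.0 in its 2 libraries). Neutrophil-like clusters made up 10.4% and 9.65% of Mo-MF and 0.0573% of 1 B-MF library, and the larger of them averaged 3.09 (2.90 and 3.27). Together these cells held 41.6% (neutrophil-like) and 14.7% (monocyte-like) of the Mo-MF Tgfbi counts. The largest Mo-MF cluster, led by Bex1, averaged 0.164, below the 0.288 of the largest B-MF cluster, led by Pf4. The next Mo-MF cluster, led by Ly6a, averaged 0.688, above the Pf4-led cluster and the Myc-led B-MF cluster (0.191). Restricted to macrophage-like clusters, the log2 difference was -0.29 ± 0.05, still called by limma (adjusted p = 0.00252) in a comparison that called 38.6% of all genes. With the monocyte-like cluster added it was -0.61. The other called members moved little under these choices of cells, with differences of 0.20 (Tgfb1), 0.37 (Tgfbr2) and -0.65 (Tgfbr1) in macrophage-like clusters.

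**Figure D1:**
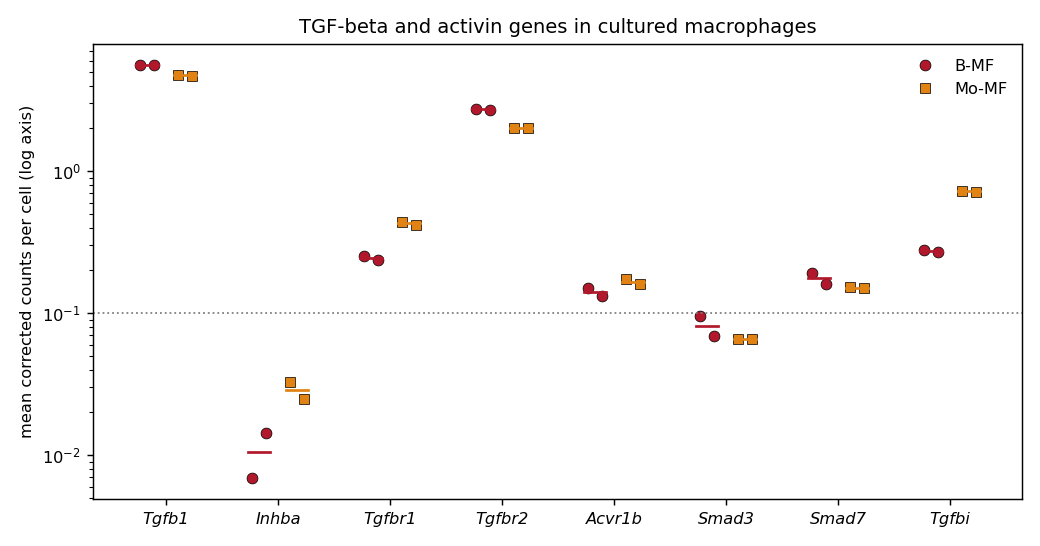
Mean corrected count per cell of the 8 members in each culture library, 1 point per library, 2 for B-MF and 2 for Mo-MF. Tgfb1 and Tgfbr2 lay higher in both B-MF libraries (5.57 and 5.63, and 2.76 and 2.68), and Tgfbr1 and Tgfbi lay higher in both Mo-MF libraries (0.437 and 0.419, and 0.731 and 0.719).

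Beyond the 8 members, 94 further genes of the pathway were listed by role, with results of these data known. The list also took in genes of bone morphogenetic proteins, such as Bmp2, Bmpr1a and Bmpr2, so it is not a readout of TGF-β and activin alone. Of the listed genes, 47 passed the filter in the cultures. Of these, 14 were higher in B-MF, 14 lower and 19 not called, where 22.6% of all genes were higher and 16.9% lower. Their median log2 difference was 0.02, as over all genes. None of 7 Smad and adaptor genes was called by limma. Genes of ligand latency and activation were lower in 5 of 9 cases and higher in 1, target genes were higher in 6 of 13 and lower in 4, and inhibitor genes were higher in 4 of 12 and lower in 3.

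Among the 8 listed genes with the largest called differences, Id3, listed as a target and coding for an inhibitor of helix-loop-helix factors, averaged 2.65 and 2.25 in B-MF, against 0.0431 and 0.0494 for the Mo-MF libraries (log2 difference 4.12). Cdkn1a, which codes for the cell-cycle inhibitor p21, differed by 1.15, and the ligand gene Bmp2 by 1.37. Lower in B-MF were Mmp14 (-2.86), a membrane protease that can release latent TGF-β, the matrix gene Fn1 (-2.44), Mmp9 (-1.48), the transcription factor gene Bhlhe40 (-1.16) and the ligand gene Gdf3 (-1.13). Fn1 averaged 0.440 and 0.489 in B-MF, against 2.85 and 3.07 for the Mo-MF libraries. In macrophage-like clusters Mmp9 differed by only -0.20, while the other 7 kept differences of 1.12 to 4.16 in size and their directions. Among these targets, Id3 and Cdkn1a were higher in B-MF while Tgfbi, Fn1 and Bhlhe40 were higher in Mo-MF. Which ligands set these levels was not tested.

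In the tumor, cells with at least 1 corrected Csf1r count made up 58.9%, 39.1%, 47.0% and 42.0% of libraries 2 to 5, 5159 cells in all. They had more Tgfb1 and Tgfbi per cell than cells without Csf1r in every library. Differences were smaller in Inhba, Smad7 and Tgfbr1, and that of Tgfbr2 was not called when means were compared without further scaling. Of 6 members that passed the filter, 5 were called higher. That share has to be read against all genes, of which 83.9% were called, 66.8% as higher and 17.1% as lower in Csf1r+ cells. The median log2 difference was 0.34 over all genes and 0.74 over the 6 members. With size factors, 7 members passed the filter, of which 3 were called higher, 1 lower and 3 not, with a median of 0.09. Csf1r+ cells had a median of 2296 to 2468.5 detected genes per library and Csf1r- cells 1387 to 1441. Neutrophil-like cells made up 12.1% to 30.5% of Csf1r+ cells and 67.7% to 82.2% of Csf1r- cells, and the neutrophil gene S100a8 averaged 88.1 to 191 in the first and 333 to 422 in the second. The part of these gaps in the members' differences was examined only through the choices of cells and the scaling given next to each gene.

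Tgfb1 averaged 4.02, 2.47, 3.08 and 3.03 in Csf1r+ cells of libraries 2, 3, 4 and 5, and 1.28, 0.703, 0.994 and 0.927 in Csf1r- cells. The lowest Csf1r+ value was above the highest Csf1r- value, and library 2 was the highest in both. The log2 difference was 1.60 ± 0.05 (SE; limma with library as block, adjusted p = 4.39e-08), and 1.16 when size factors removed the shift of the median gene, where 38.8% of all genes were called higher and 40.1% lower. Within monocyte- and macrophage-like clusters it was 0.53 ± 0.06, called (adjusted p by limma 0.00108) against a background of 28.8% of all genes, and within neutrophil-like clusters it was 0.20 and not called.

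Inhba averaged 2.83, 1.14, 2.26 and 1.11 in Csf1r+ cells and 1.17, 0.799, 0.952 and 0.457 in Csf1r- cells. Csf1r+ cells were higher in each library, but the groups overlapped, since Csf1r- cells of library 2 were above Csf1r+ cells of libraries 3 and 5. The log2 difference was 0.99 ± 0.11 (SE; limma, adjusted p = 2.42e-05), and 0.56 and still called with size factors. Unlike that of Tgfb1, it was not found within a cell class: it was -0.26 ± 0.18 in monocyte- and macrophage-like clusters (not called by limma) and -0.38 ± 0.10 in neutrophil-like clusters (adjusted p by limma 0.0393). The first value rested on library 3, at -1.16 with 169 Csf1r- cells, and the mean difference was 0.035 without it.

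Most Inhba counts came from a single cluster, monocyte-like and led by Sdc1, Arg1, Thbs1 and Inhba itself. It held 19.9% of tumor cells and 76.8% of the Inhba counts, with 6.35, 4.33, 6.32 and 3.15 counts per cell in libraries 2 to 5. The next clusters of over 100 cells were the macrophage-like cluster led by H2-Eb1 at 0.846 (0.431 to 1.18 over libraries) and a neutrophil-like cluster led by Ciart at 0.603 (0.420 to 0.744), whose library ranges overlapped. Of the smaller clusters, the fibroblast-like one of 18 cells averaged 7.89, above the 5.29 of the Sdc1-led cluster. The Ifit2-led monocyte-like one of 58 cells averaged 1.345. The larger B-like cluster, which should lack the gene, averaged 0.00935, and the smaller, of 29 cells, 0.0345. Without the Arg1 and Inhba led cluster, which was set apart after its genes were seen, the Csf1r+ and Csf1r- means of Inhba were 0.393 and 0.398, given as a description since that choice removed most counts of the gene. Tgfb1 still differed by 1.59 and Tgfbi by 1.87. Of all genes, 80.1% were called in that comparison.

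In the cultures, which were normalized separately, no macrophage-like cluster averaged above 0.0388 counts of Inhba. That value was of the Ube2c-led cluster, whose highest library was at 0.136. Levels from the 2 tables are set side by side without a comparison.

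Of the receptor genes, Tgfbr1 averaged 0.324, 0.268, 0.275 and 0.234 in Csf1r+ cells and 0.235, 0.216, 0.192 and 0.231 in Csf1r- cells, so that the groups overlapped. Its log2 difference of 0.23 ± 0.06 was called (limma, adjusted p = 0.00738), but it lay under the median of all genes and turned to -0.10, not called, with size factors. Within monocyte- and macrophage-like clusters it was 0.30 ± 0.08, called without overlap (adjusted p by limma 0.0195). Tgfbr2 averaged 0.475, 0.419, 0.453 and 0.383 in Csf1r+ cells and 0.382, 0.45, 0.436 and 0.416 in Csf1r- cells. No order showed between its 2 groups, the log2 difference was 0.03 (95% interval -0.12 to 0.18; limma, adjusted p = 0.674), and it was called with size factors (-0.35) and, in the other direction, by the share of cells with a count (0.36). Cells with counts of both receptor genes made up 10.9%, 7.06%, 7.93% and 6.51% of Csf1r+ cells in libraries 2 to 5, above the products of the single shares (9.13%, 5.90%, 6.53% and 5.43%).

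Acvr1b and Smad3 were under the filter in this comparison. Acvr1b averaged 0.0839 to 0.137 in Csf1r+ cells and 0.0648 to 0.124 in Csf1r- cells, overlapping. Smad3 averaged 0.119, 0.115, 0.101 and 0.13 in Csf1r+ cells and 0.0772, 0.0552, 0.053 and 0.0574 in Csf1r- cells, without overlap. Within monocyte- and macrophage-like clusters Smad3 passed the filter and was higher in Csf1r+ cells by 0.28 ± 0.07 on the log2 scale (limma, adjusted p = 0.0155).

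Smad7 averaged 0.999, 0.773, 0.762 and 0.794 in Csf1r+ cells and 0.564, 0.566, 0.557 and 0.543 in Csf1r- cells. The groups did not overlap, and library 2 stood above the other Csf1r+ values. The log2 difference was 0.50 ± 0.06 (SE; limma, adjusted p = 6.35e-05). It was 0.76 without B-like, T/NK-like and other minor classes, 0.25 and not called within monocyte- and macrophage-like clusters, and 0.09 and not called with size factors (adjusted p by limma 0.207).

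Tgfbi averaged 7.84, 7.68, 8.6 and 7.82 in Csf1r+ cells and 2.52, 2.23, 2.49 and 2.22 in Csf1r- cells. This was the clearest separation among the members, with every Csf1r+ value over 3 times every Csf1r- value. The log2 difference was 1.71 ± 0.05 (SE; limma, adjusted p = 4.39e-08) and 1.26 with size factors. It was also the only member called higher in Csf1r+ cells both within monocyte- and macrophage-like clusters (0.66 ± 0.06, adjusted p by limma 0.000686) and within neutrophil-like clusters (0.39 ± 0.07, 0.0124, where 11.6% of all genes were called). Whether the difference itself differs between these classes was not tested. Each class pooled several clusters, and the part of their mix in the differences within a class was not tested for any member. Among neutrophil-like clusters, those led by Ciart and Isg15 had Csf1r in 13.9% and 18.7% of cells and Tgfbi at 1.40 and 1.54. Those led by Steap4 and Ngp had 31.9% and 22.6%, and 2.50 and 2.78.

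**Figure D2:**
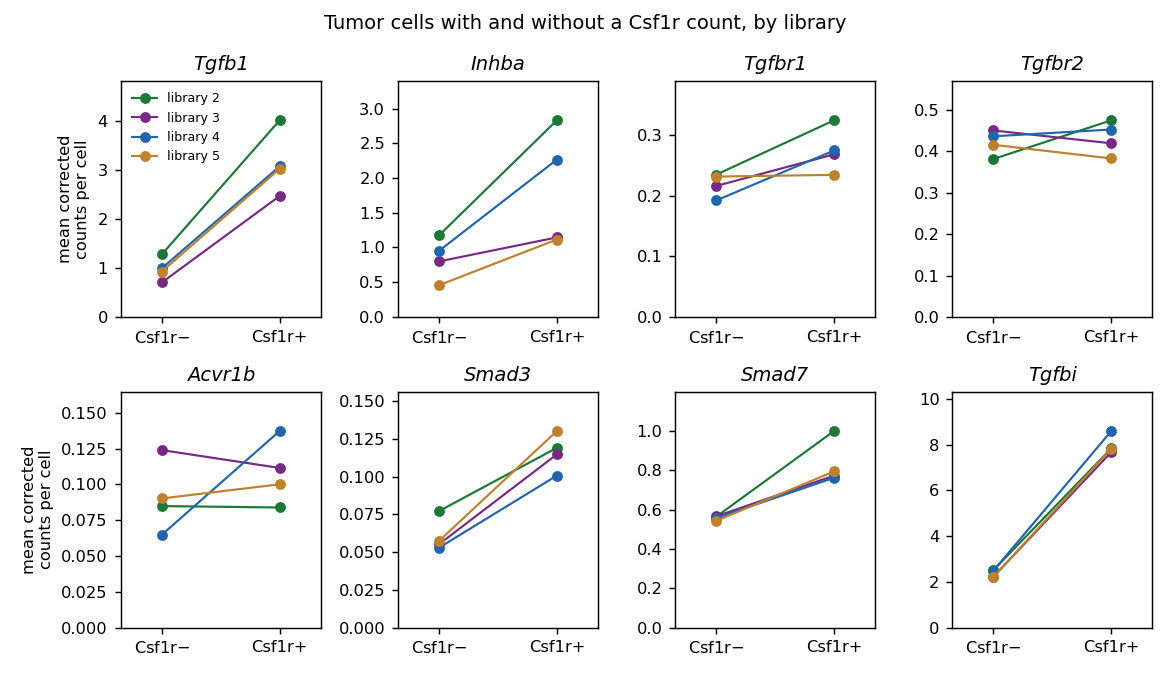
Mean corrected count per cell of the 8 members in Csf1r+ and Csf1r- tumor cells, 1 point per library with lines joining the cells of 1 library. Tgfb1 (2.47 to 4.02 against 0.703 to 1.28) and Tgfbi (7.68 to 8.6 against 2.22 to 2.52) were apart in all 4 libraries, and the points of Tgfbr2 and Acvr1b overlapped.

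**Figure D3:**
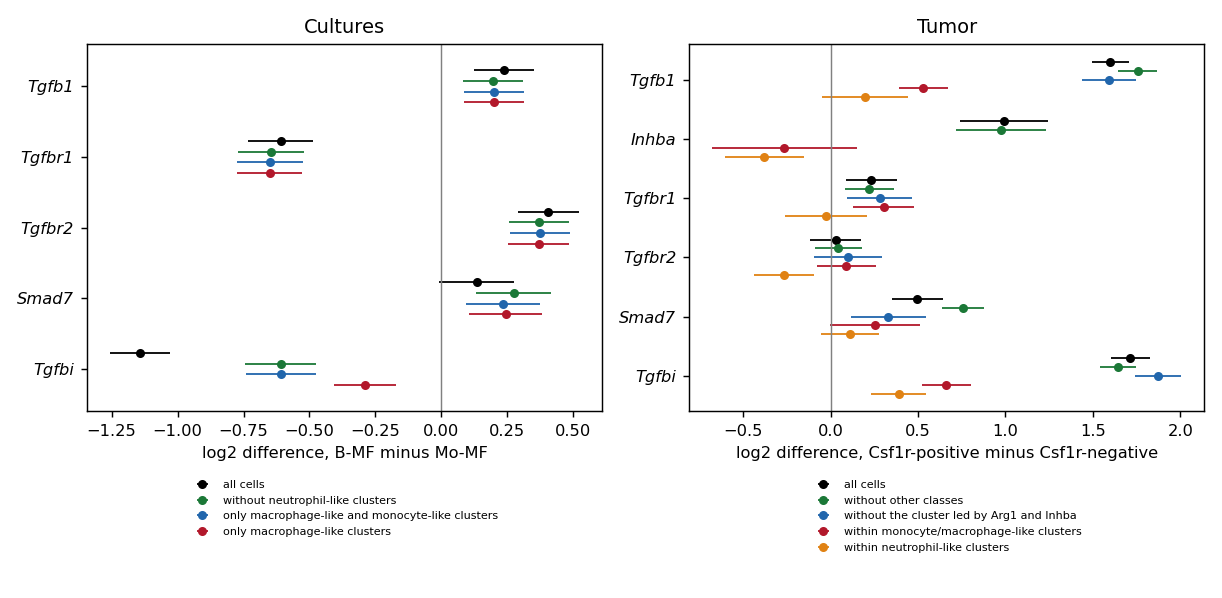
Log2 differences of members in both scRNA-seq comparisons under different choices of cells, with 95% intervals from limma. The Tgfbi difference between the cultures shrank from -1.14 to -0.29 in macrophage-like clusters, and the Tgfb1 difference by Csf1r from 1.60 to 0.53 within monocyte- and macrophage-like clusters. Acvr1b and Smad3 are not drawn, and Inhba is drawn neither for the cultures nor without the Arg1 and Inhba led cluster.

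Clusters were formed from the same cells, so their levels are a description without a test. Tgfb1 in the tumor was highest in the monocyte-like clusters led by Ifit2 (5.26, 58 cells) and by Sdc1 (4.74, 3.65 to 5.44 over libraries), followed by those led by H2-Eb1 (3.60) and Tmem176b (3.58), whose library ranges overlapped. T/NK-like cells averaged 3.15 and the larger B-like cluster, of 214 cells, 2.82, above the 1.94 of the C1qc-led macrophage-like cluster and the 0.296 to 0.519 of the 4 neutrophil-like clusters. The smaller B-like cluster, of 29 cells, averaged 1.14.

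Tgfbi followed another order. The clusters led by Ifit2 (11.7) and H2-Eb1 (11.6, 10.9 to 12.1 over libraries) were highest, those led by Tmem176b (9.81) and Sdc1 (8.83) came next with overlapping ranges, and the C1qc-led cluster averaged 5.13 (4.52 to 6.07). Neutrophil-like clusters averaged 1.40 to 2.78, with the immature cluster led by Ngp at the top. The larger B-like cluster averaged 0.565 and the smaller 0.103. Between monocyte- and macrophage-like and neutrophil-like cells as classes, 7 of the 8 members averaged higher in the first, and Acvr1b alone did not (0.0982 and 0.105). Most genes went the same way: of all 5825 genes tested between these classes, limma called 4059 higher in the first and 1132 lower. The classes were formed from the same cells, so these counts are a description. Over all these genes the median log2 difference was 0.56, and Tgfbr1 (0.21) and Tgfbr2 (0.14) lay under it.

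Smad7 averaged 3.76 in T/NK-like cells and 2.11 and 2.97 in the larger and the smaller B-like cluster, against 0.519 to 1.17 in monocyte- and macrophage-like clusters of over 100 cells. Tgfbr2 averaged 2.07 and Tgfbr1 0.806 in an unnamed cluster of 72 cells led by Ctsk, a cathepsin gene used by osteoclasts, which had Csf1r counts in 98.6% of cells. These were their highest levels in any tumor cluster, and there no Inhba or Smad3 count was listed. Among macrophage-like cells the C1qc-led cluster had the most Tgfbr2 (0.658, 0.533 to 0.692 over libraries), above the 0.364 (0.341 to 0.406) of the Sdc1-led cluster, whose Tgfb1 and Inhba levels were the higher ones.

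In the cultures the spread over macrophage-like clusters was narrow for Tgfb1, from 4.63 to 6.01, and for Tgfbr2, from 1.60 in the cycling cluster led by Ube2c to 2.86 in the B-MF cluster led by Myc. Tgfbr1 ran from 0.189 in the Pf4-led B-MF cluster to 0.473 in the Ube2c-led one. Among clusters of at least 50 cells, the neutrophil-like one led by Retnlg had the lowest Tgfb1 (3.50) and the highest Smad7 (0.356). It also had Csf1r counts in 97.5% of cells, and their source was not tested. Corrected counts of genes common in the culture therefore cannot be read as expression in single neutrophil-like cells.

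**Figure D4:**
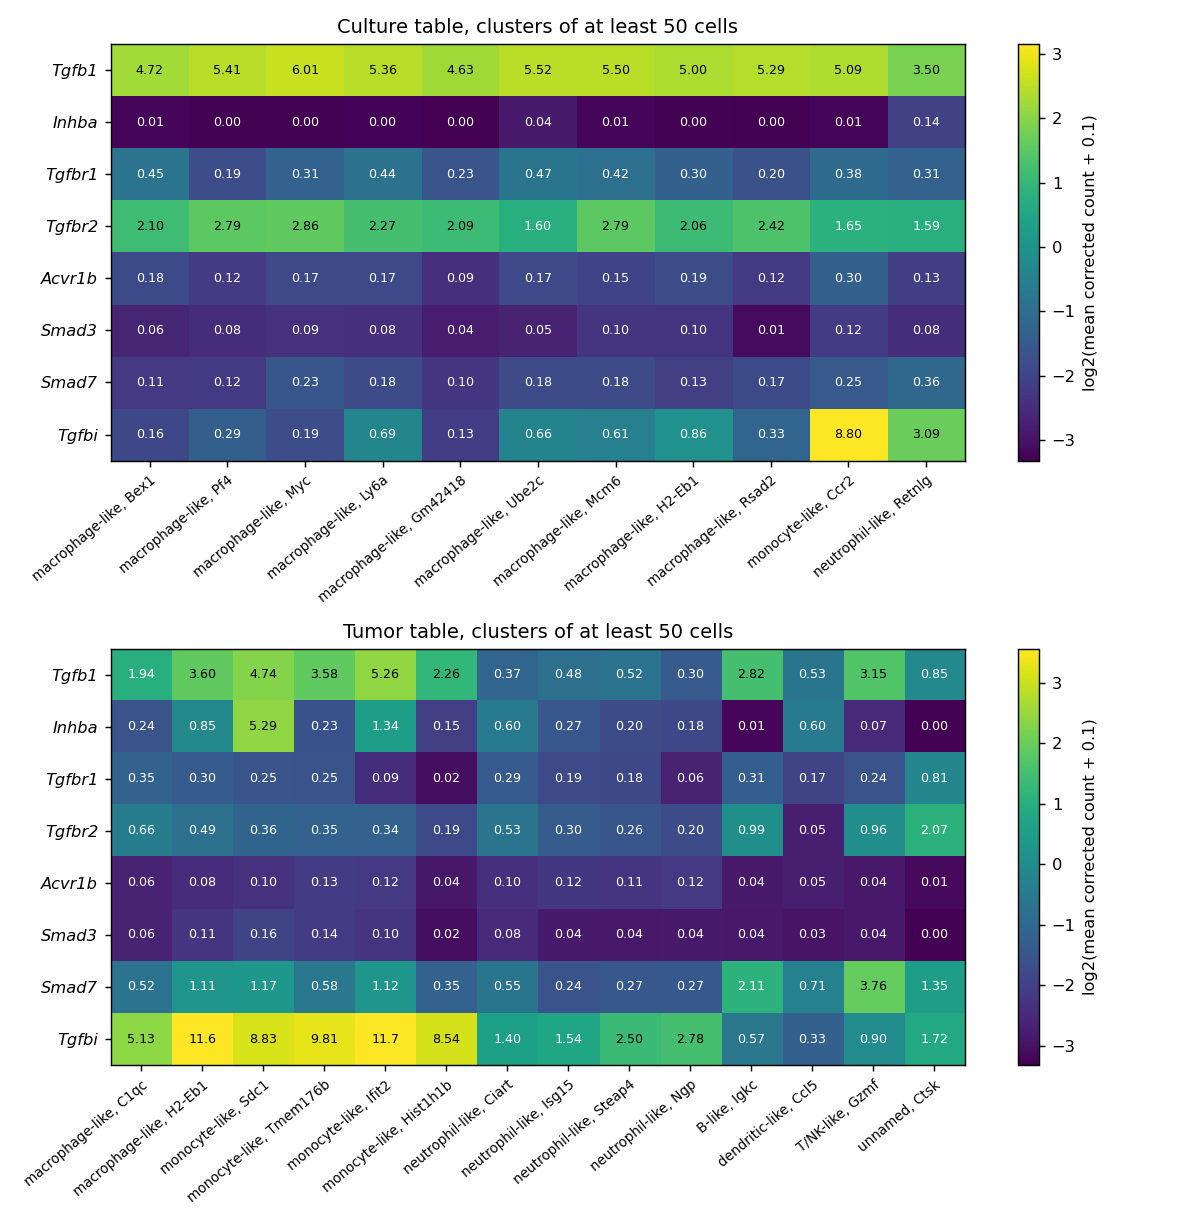
Mean corrected count per cell (printed) and its log2 with 0.1 added (color) for the 8 members in the clusters of at least 50 cells, each named by class and leading gene, in cultures (top) and tumor (bottom). Tumor Inhba stood out in the Sdc1-led monocyte-like cluster (5.29), and culture Tgfbi in the Ccr2-led (8.80) and Retnlg-led (3.09) clusters.

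The gene whose pattern over the 14 tumor clusters was most like that of Inhba was the chemokine gene Cxcl1 (Pearson r = 0.90), then Arrdc4 (0.90) and Csf2rb2 (0.89). For Tgfbi these were Milr1 (0.96), Tnfrsf21 (0.95) and Plscr3 (0.95), and for Tgfb1 Mndal (0.96), Ifi203 (0.95) and Jarid2 (0.94). Over the 11 culture clusters they were Coro1a (0.97), Lsp1 (0.96) and Rasgrp4 (0.95) for Tgfbi and Helz (0.97), Coro7 (0.96) and Hsd17b4 (0.95) for Tgfb1. The clusters of a table share their libraries and were built from these genes, so the values are given as a description.

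Of the 94 other pathway genes, 42 passed the filter in the tumor comparison, with 25 higher in Csf1r+ cells, 10 lower and 7 not called, and a median log2 difference of 0.32 against 0.34 for all genes. Over all genes the shares were 66.8% and 17.1%. With size factors the counts became 16 higher, 18 lower and 8 not called, against 38.8% and 40.1% of all genes. Within monocyte- and macrophage-like clusters 11 were higher, 1 lower and 29 not called of 41, where 23.6% of all genes were higher and 5.23% lower. Over all cells, target genes were higher in 5 of 15 cases and lower in 7, with a median log2 difference of -0.10. Genes of latency and activation were higher in 6 of 7 and lower in 1, and receptor genes higher in 2 of 3 and lower in 1. Smad and adaptor genes were higher in 5 of 7 and lower in 0, and inhibitor genes higher in 7 of 10 and lower in 1. The 8 largest called differences were all higher in Csf1r+ cells: Fn1 (2.09), Mmp14 (1.94), Thbs1 (1.91), which codes for an activator of latent TGF-β, Tsc22d1 (1.40), Nrros (1.22), which codes for a protein that tethers latent TGF-β on myeloid cells, Zfyve9 (1.16), an adaptor that presents Smads to the receptor, Fkbp1a (1.11), whose product holds the type I receptor inactive, and Tgm2 (1.02). Within monocyte- and macrophage-like clusters Mmp14 (0.64), Nrros (0.56), Fn1 (0.48) and Zfyve9 (0.40) were still called by limma. Thbs1 (-0.01) and Tsc22d1 (-0.01), which like Inhba were among the leading genes of the Sdc1-led cluster, were not, nor were Fkbp1a (0.12) and Tgm2 (0.23).

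ATAC-seq placed the members among the open promoters of BMBP. The strength of a start was the percentile of its strongest peak's fold enrichment, within 500 bases either side, among all peaks of the same library. The lists held 65832 to 76530 peaks in BM and 43407 to 50392 in spleen libraries, read depth per library was unknown, and no read counts were used. For 7 of 8 members a peak lay at the start in all 12 libraries, as it did for 46.3% of 21755 starts, while 41.5% had none in any library. For Tgfbi it was missing in spleen CSF1R+ replicate 3.

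The starts of Tgfb1, Inhba and Tgfbr2 ranked higher among the peaks of BM than of spleen libraries, and that of Smad3 ranked lower. These 4 members were called, against 55.0% of all 12735 starts tested, 48.2% higher and 6.72% lower in BM, and against a median shift of 4.21 percentile points toward BM over all starts. A percentile also moves with the length of its list, and the part of the longer BM lists in these ranks was not tested. With a replicate block no start of any gene was called by exact sign flips, since even the smallest adjusted p lay above the threshold. That test therefore cannot tell these 4 members from other starts, and no conclusion about them is drawn from it. The replicate numbers were also not shown to pair the samples. Inhba ranged from 86.8 to 97.2 in the 6 BM libraries (median 93.8) and from 42.3 to 71.9 in the 6 spleen libraries (median 62.8). The groups did not overlap, with means of 93.3 ± 3.72 and 59.9 ± 11 (SD, n = 6 each; exact permutation test, two-sided, p = 0.00216, the smallest that 6 against 6 libraries allow, adjusted 0.00639). The 6 libraries of a tissue pool CSF1R+ and CSF1R- cells, and the test treats all 6 as separate. Whether cells of both kinds came from the same animals was not given in the sources used here, so the p may be too small.

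The same p held for the other 3. The Tgfb1 start had a mean percentile of 35.1 ± 4.66 in BM and 9.86 ± 2.82 in spleen (SD, n = 6), so it was a weak peak in spleen with fold enrichments of 3.97 to 5.09. The Tgfbr2 start had 74.1 ± 2.34 and 59.4 ± 4.27. The Smad3 start had 39.7 ± 8.76 in BM, where it ran from 27.0 to 52.1, and 54.6 ± 2.50 in spleen, where the lowest library was at 52.4. Only a narrow gap separated the Smad3 groups.

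The other members did not pass the test. Tgfbr1 had the strongest start at 95.9 ± 0.434 and 96.1 ± 0.636, Acvr1b 91.0 ± 2.77 and 88.4 ± 3.29, Smad7 40.9 ± 4.27 and 43.6 ± 2.43, and Tgfbi 29.6 ± 10.2 and 22.1 ± 13.5 (mean percentile ± SD in BM and spleen). On log2(fold enrichment + 1) instead of percentiles, all starts split into 17.5% higher and 34.5% lower in BM. On that scale Tgfb1 (0.39) and Inhba (0.75) were higher in BM and Smad3 (-0.58), Tgfbr1 (-0.22) and Smad7 (-0.28) lower, all called, while Tgfbr2 (0.14) was not called by the exact permutation test (adjusted p = 0.104), with overlapping fold enrichments of 12.7 to 13.9 in BM and 10.2 to 13.4 in spleen.

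No difference by CSF1R could be called at these starts, since 3 against 3 libraries cannot go below an exact permutation p of 0.1. In BM only Tgfbr1 had groups that did not overlap, with percentiles of 96.1, 96.1 and 96.4 in CSF1R+ and 95.2, 95.5 and 96.1 in CSF1R- cells, against 13.0% of all starts, 8.91% higher and 4.07% lower in CSF1R+ cells. The means differed by 0.59 percentile points. On log2(fold enrichment + 1) Tgfbr1 (-0.065), Tgfbr2 (-0.058) and Smad7 (-0.18) were lower in CSF1R+ cells without overlap, as were 24.2% of all starts. In spleen no member was without overlap, against 11.5% of all starts. The difference between tissues in the CSF1R effect was called by the exact permutation test for none of 12735 starts, and for Tgfbr1 its unadjusted p was 0.055 (n = 3 per group). These contrasts share libraries with the comparison of BM and spleen.

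**Figure D5:**
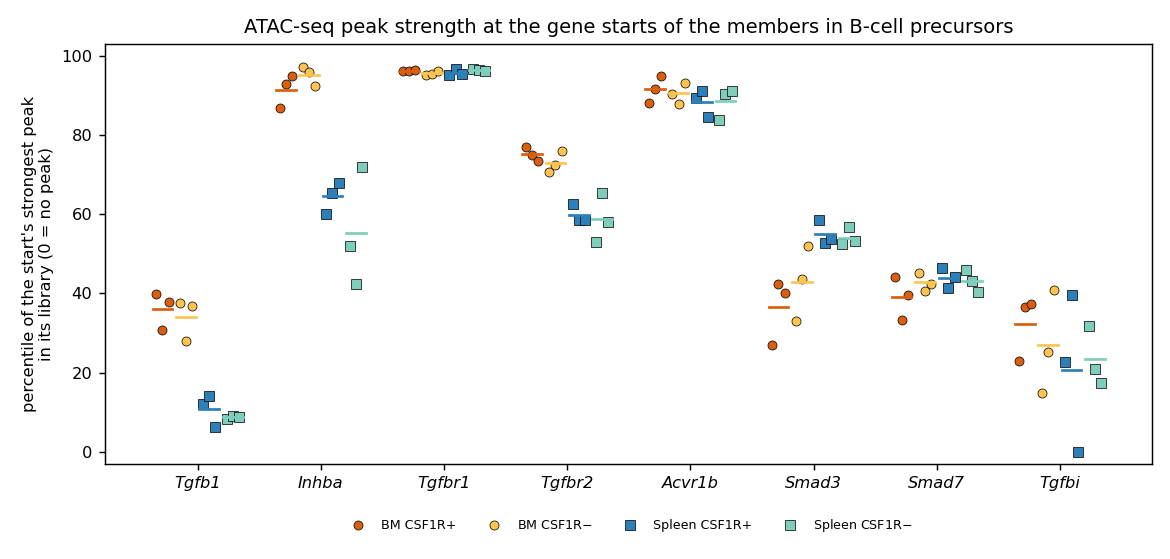
Percentile of fold enrichment of the strongest peak at each member's start in the 12 ATAC-seq libraries, 1 point per library, by tissue and CSF1R. The Inhba, Tgfb1 and Tgfbr2 starts were higher in all 6 BM libraries and the Smad3 start in all 6 spleen libraries, while CSF1R+ and CSF1R- points of a tissue were mixed for most members.

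Beyond the starts, 100 merged peak regions lay in or within 10000 bases of the 8 genes. Of these, 36 had a peak in all 12 libraries, 8 in all 6 BM and no spleen library, and 2 in all 6 spleen and no BM library, which are shares close to those of all 101333 regions (30.1%, 11.2% and 2.01%). Smad3 had 6 of the 8 BM regions, all in the gene body or within 10000 bases past its end, one of them centred 717 bases downstream of the start at chr9:63757063-63757492. Tgfbr2 had both spleen regions, at chr9:116114238-116114730 and chr9:116134570-116135066, and 1 BM region between them at chr9:116133226-116133855. Near the member genes no region followed CSF1R in BM, and 1 region in Smad3 (chr9:63714698-63714890) had peaks in all 3 spleen CSF1R+ and in no spleen CSF1R- library. Over all regions, 0.613% had peaks in all 3 BM CSF1R+ and no BM CSF1R- library, and 0.503% the other way round. For spleen, 0.439% had them in all 3 CSF1R+ and no CSF1R- library, so the counts near the members lay close to these shares.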

How the data were processed

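ATAC-seq was done on 12 libraries, and scRNA-seq on 4 culture and 4 tumor libraries, grouped by the labels. The deposited scRNA-seq values are the natural log of 1 + count, after the authors had run Cell Ranger and adjusted the counts for depth by SCTransform. All values above 0 gave whole numbers when converted back (relative tolerance 1e-06). Since these counts were already adjusted, depth before the correction is unknown. For ATAC-seq, the deposited peak lists, 1 per library, give each peak's fold enrichment over background and its significance as −log10 p and −log10 q. Per the labels, reads were handled with cutadapt, BWA and MACS2, or STAR, on mm10, with versions not given in the sources used here. The pooled list of regions was not used, and 0 per-sample columns were left out. The cell names of the tumor table carry the library numbers 2 to 5, which could not be matched to single samples in the labels. The 4 numbers were taken as the 4 tumor samples, and tumor p-values rest on that.

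Members and gene lists were chosen with earlier results of these data known. Corrected counts were averaged over the cells of a library, and log2(mean + 0.1) was tested in limma (lmFit, eBayes) where the mean over libraries reached 0.1, two-sided, with Benjamini-Hochberg adjustment over all genes tested and a threshold of 0.05. Fold changes on this scale are understated for low genes. The eBayes step moves each gene's variance toward a value shared over all genes. With 2 libraries of a kind, a gene's SE and p therefore do not rest on its own libraries alone. Csf1r+ and Csf1r- cells were compared within libraries, with library as a block. Cells were clustered by the Leiden algorithm (20 neighbors, 30 principal components, 2000 variable genes, resolution 0.5). A cluster took a class when 3 or more of its markers were raised by over 0.5 (log2) and these were 50% of the detected ones or 2 were among the 10 leading genes. A cluster without a class was called macrophage-like where Csf1r, Adgre1 and Cd68 were each found in 50% of its cells, a rule set after seeing the data. Doublets were not removed. Starts come from the GENCODE vM21 annotation of GRCm38, and a start's percentile was compared by exact two-sided permutation tests. Named genes were the 8 members, the 8 other pathway genes with the largest called differences per comparison, and the 3 genes most like Inhba, Tgfbi and Tgfb1 over clusters of at least 50 cells. The fits were tested on simulated data. Alternatives were other pseudocounts, filters, scalings, windows, peak thresholds, resolutions and cells, the replicate block, and each library left out in turn. Fits ran in limma 3.58.1 under R 4.3.3. Clustering used leidenalg 0.10.2, python-igraph 0.11.9 and scikit-learn 1.9.0, and all else Python 3.11.15 with pandas 2.3.3, scipy 1.17.1, numpy 2.4.6 and, for figures, matplotlib 3.10.9.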

Additional observations from a re-analysis of the deposited data

Results flagged for a closer look

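Tumor library 2 stood apart from the other 3 tumor libraries in 2 members. Over all its cells the mean corrected count of Tgfbr1 was 0.2874, where the others lay between 0.231 and 0.236, and that of Smad7 was 0.8204, where the others lay between 0.647 and 0.654. In Csf1r+ cells, Smad7 averaged 0.9995 in library 2 and 0.762 to 0.794 elsewhere. Each exceeded the limit of Dixon's test for 4 values, which was applied to 40 groups and by chance marks about 1 in 20 of them. Library 2 also had the highest share of Csf1r+ cells, at 58.9%, against 39.1% to 47.0% in the others, and the part of this share in the levels was not tested.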

How the results depend on the processing

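Between B-MF and Mo-MF, 4 of 6 members and 3413 genes were called by limma. This fell to 2 members where the filter was a mean of at least 0.5, where fewer members could be tested, and to 1 member and 312 genes for the share of cells with a count. Leaving out 1 library gave 1991 to 5535 genes, with the lone library of a kind assumed to vary like the others. By Csf1r in the tumor, 5 members and 4974 genes were called, against 8272 genes without the filter and 1727 with a mean of at least 0.5. With cells chosen after seeing the data, 1866 genes were called within monocyte- and macrophage-like clusters, and 523 genes and 2 members within neutrophil-like clusters. The log2 difference of Inhba reversed to -0.26 and -0.38 in these classes, the first resting on library 3 (0.035 without it, and -0.40, -0.33 and -0.36 without library 2, 4 or 5). It was -0.061 without the Arg1 and Inhba led cluster, which held 76.8% of its counts. That of Tgfbr1 reversed to -0.10 with size factors and -0.027 within neutrophil-like clusters. That of Tgfbr2 reversed to -0.048 with equal totals, -0.35 with size factors and -0.27 within neutrophil-like clusters, and ran from -0.045 without library 2 to 0.072 without library 5. Between BM and spleen, 4 starts were called by the exact permutation test and 0 when only a peak or none was scored, since the 4 starts had a peak in all libraries, and Acvr1b reversed to -0.14 on log2 fold enrichment. Between CSF1R+ and CSF1R- cells of BM, 1 start was without overlap, with 0 at −log10 q of at least 5, 0 for a peak or none, 3 on log2 fold enrichment, where Tgfbr1 reversed to -0.065, and 1 to 3 with 1 library left out. In spleen leaving out 1 library gave 0 to 1. The replicate numbers were not shown to pair the samples: deviations of same-numbered libraries correlated at 0.126 in the cultures, with 2 pairs, and at 0.003 to 0.190 in ATAC-seq. With the replicate block 3908 genes and 5 members were called between the cultures, Acvr1b being added, and 0 starts between BM and spleen (smallest adjusted p = 0.0657 by exact sign flips). Without the library block 4585 genes were called by Csf1r. The causes were not tested where none is given. Among single genes and starts, 462 values under other settings were counted as unchanged, 18 lost a call, 11 gained one, 14 reversed and 33 moved. Unchanged meant the same direction and side of the threshold, except for starts compared by CSF1R. There it meant a change smaller than the pooled SD, even where the sign turned. A reversal was counted there only for a start without overlap. Depth before the correction and ATAC-seq depth per library are unknown.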

Other observations

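Counts of both Tgfb1 and Tgfbr2 were present in 89.6% and 87.3% of B-MF and in 83.3% and 82.8% of Mo-MF cells, near the products of the single shares, which were 89.5%, 87.3%, 83.3% and 82.8%. In Csf1r+ tumor cells the pair was present in 30.3%, 19.6%, 26.4% and 23.7% of libraries 2 to 5, with products of 29.5%, 19.7%, 25.1% and 22.1%. Counts of both Inhba and Acvr1b, the activin subunit gene and its type I receptor gene, were present in 2.19%, 2.32%, 3.12% and 1.67% of the Csf1r+ tumor cells, with products of 2.04%, 1.67%, 3.03% and 1.59%, and in at most 0.206% of the cells of a culture library.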
